A study of Mus musculus with 6 samples.

Results

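The transcription factors described here set the identity of spinal motor neurons or divide them into motor columns. They are Mnx1, Isl1, Isl2, Lhx3, Lhx4, Lhx1, Foxp1, Onecut1, Onecut2 and Pou3f1, taken by gene name from an expression table of 19613 gene rows. Rows were found for 9 of the 10 genes, and Foxp1 was not analysed here. The values came from Affymetrix mouse exon arrays hybridised with RNA from 6 cultures of embryoid bodies (EBs), aggregates of differentiating embryonic stem cells. All 6 arrays form 1 group, numbered in their titles as replicates 2, 4, 5, 6, 7 and 8, and the numbers only name the arrays.

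The EBs came from embryonic stem cells labelled HBG3 HB9, a line that the methods spell HGB3. Per the methods of the study, this line carries an HB9-eGFP reporter, in which the control sequences of Mnx1 (Hb9) drive a green fluorescent protein, and retinoic acid and a Hedgehog agonist were added during differentiation to induce spinal motor neurons. On differentiation day 6 the EBs were plated and exposed for 24 h to 5% mouse serum. The serum donors were 10-week-old male carriers of strain B6CBA-Tg(HDexon1)62Gpb/3J, a Huntington's disease model with a fragment of the human huntingtin gene, and had no symptoms yet. The labels of the arrays call the fluid plasma, whereas the methods call it serum. In the study these samples tested whether an assay built on serum from SOD1 mutant mice, which model amyotrophic lateral sclerosis, responds to that disease alone. Control arrays were not analysed here, so nothing below measures an effect of the serum. The study chose Mnx1, Isl1 and Lhx3, with Olig2, as the genes by which it corrected other genes for differences between batches of neurons, and that correction is not part of these values. Whether each array had its own donor, and which arrays shared a batch of cells, is not given in the sources used here. No value could therefore be given within batches. The p-values below measure only how the values of a pair of genes go together over these arrays. They treat the arrays as interchangeable, which shared batches or donors would break.

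Motor neurons arise in the ventral spinal cord when retinoic acid and Sonic hedgehog pattern dividing progenitors, which switch on Olig2 and then leave the cell cycle. Newborn motor neurons start Mnx1, a homeodomain factor that holds interneuron genes off, and the LIM-homeodomain factors Isl1, Isl2, Lhx3 and Lhx4. In the cell, Isl1 and Lhx3 join through the adaptor Ldb1 in a complex that drives motor neuron genes. Columns then form. Cells of the medial motor column keep Lhx3 and Lhx4, limb-innervating cells of the lateral motor column switch them off and use Foxp1, and the lateral division of that column uses Lhx1. The same factors also serve elsewhere, Isl1 in sensory neurons and heart, Lhx1 in interneurons and kidney, and the Onecut factors in interneurons and liver. Mnx1, Isl1 and Isl2 are called the pan-motor-neuron factors below, and Lhx3, Lhx4, Lhx1 and Pou3f1 the column-specific factors. The Onecut factors were kept apart.

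The level of each factor was set against background, taken as the 95th percentile of the mean log2 intensities of 1032 olfactory receptor (Olfr) rows, most of which belong to genes used in olfactory tissue alone. That background was 7.47, and the median Olfr row stood at 5.54. All 9 measured factors lay above it, as did 65.2% of all rows, so the count alone sets the factors little apart from other genes. Their margins did differ, from 0.55 log2 units for Lhx1 to 3.44 for Pou3f1. At the stricter 99th percentile, 8.33, the mean of Lhx1 fell short by 0.31 and the means of the other 8 stayed above. Of all rows, 45.5% had a mean below that of Lhx1 and 54.3% below that of Mnx1, the factors next to this percentile on either side. Many other rows thus passed it too. Each factor was above the array's own Olfr percentile on all 6 arrays. In EBs, which mix cell types, fewer cells of a type and less RNA per cell cannot be told apart.

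**Figure D1:**
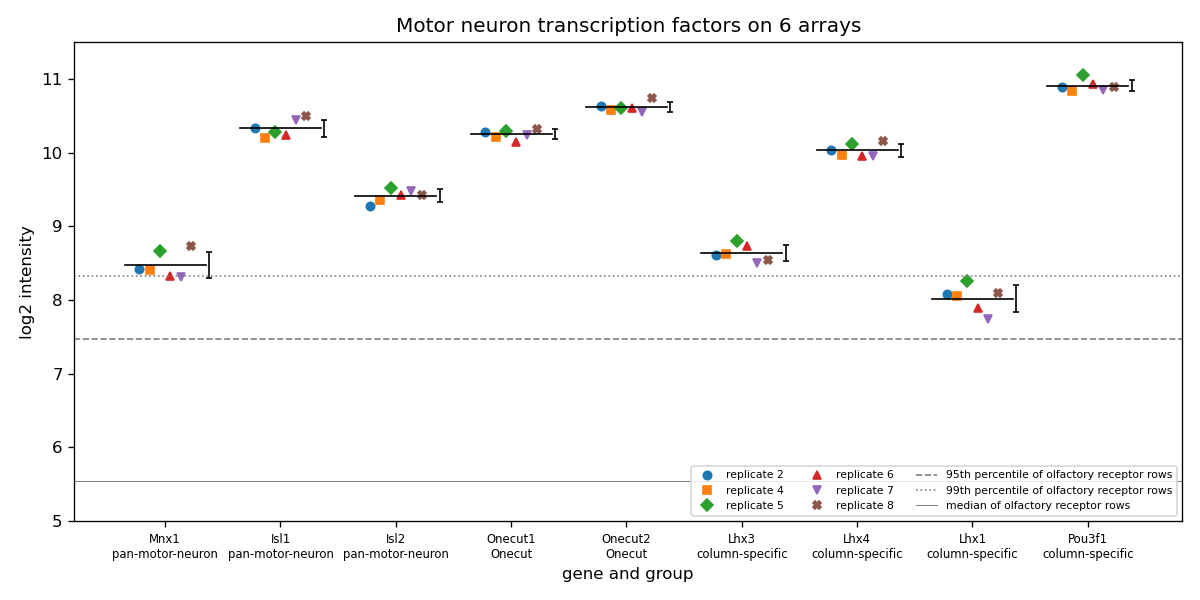
Log2 intensity (vertical axis) of each factor (horizontal axis, with its group) on the 6 arrays, with a symbol for each array. The horizontal bar is the mean and the error bar beside it the SD (n = 6). Lines across the plot mark the median, the 95th and the 99th percentile of the Olfr row means. All points lie above the 95th percentile, and Lhx1, at 7.74 to 8.26, lies under the 99th. Mnx1 also lies under the 99th on replicates 6 (8.32) and 7 (8.31).

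Mnx1, the gene whose control sequences drive the reporter of these cells, had a lowest log2 intensity of 8.31, a median of 8.42 and a highest of 8.73. Replicates 5 and 8 were the high arrays, at 8.67 and 8.73, and the other 4 lay between 8.31 and 8.43. The highest array exceeded the lowest 1.34-fold in intensity. The SD was 0.18 (n = 6), larger than that of 92.5% of the rows of like mean level (10 bins of equal size), whose median SD was 0.084. Leaving out replicate 8 gave an SD of 0.14.

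Isl1, which acts with Lhx3 in the motor neuron complex and also serves in other cell types, ran from 10.20 through a median of 10.31 to 10.50. Replicates 8 and 7 were its high arrays, at 10.50 and 10.44. A single Olfr row of the 1032 had a mean as high. Its SD of 0.12 (n = 6) exceeded that of 91.0% of rows of like level. Isl2, the close relative of Isl1 that is largely restricted to postmitotic neurons, ran from 9.28 through 9.43 to 9.53. Its lowest array was replicate 2, its highest replicate 5, and its SD of 0.087 (n = 6) was larger than that of 69.5% of its level bin. Within the pan-motor-neuron group, then, each gene had a different pair of high arrays.

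The Onecut factors were among the higher of the 9 in intensity and had the smallest SDs. Onecut1, which helps to maintain Isl1 in motor neurons, had a lowest value of 10.14, a median of 10.27 and a highest of 10.32. Onecut2, its relative with overlapping roles, ran from 10.55 through 10.61 to 10.75. The SDs were 0.066 and 0.067 (n = 6), larger than those of 55.6% and 63.3% of rows of like level. Replicate 8 gave the highest value of both genes, and without it the SD of Onecut2 was 0.029.

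Lhx3 and Lhx4, LIM-homeodomain factors with shared roles in newborn motor neurons, stood apart in intensity. For Lhx3 the lowest, median and highest values were 8.51, 8.62 and 8.81, and for Lhx4 they were 9.96, 10.005 and 10.16. Both were lowest in replicate 7. Lhx3 was highest in replicates 5 and 6, and Lhx4 in replicates 8 and 5. Probes bind with different strength, so a higher intensity of Lhx4 is not a larger amount of its RNA. The SDs were 0.11 for Lhx3 and 0.088 for Lhx4 (n = 6).

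Lhx1, the factor of the lateral division of the lateral motor column, was the lowest of the 9 and varied most in fold. It ran from 7.74 in replicate 7 through a median of 8.07 to 8.26 in replicate 5, a 1.43-fold span of intensity. Its margin over the array's own Olfr percentile was 0.16 to 0.83. Its SD of 0.18 (n = 6) was larger than that of 87.6% of its level bin, where the median SD was 0.11. Pou3f1 (Oct6), a POU factor used by subsets of motor neurons and by progenitor cells, was the highest, from 10.85 through 10.90 to 11.05. No Olfr row had a mean that high, and its highest array was again replicate 5. Its SD was 0.076 (n = 6).

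In the order of mean log2 intensity, Pou3f1 (10.91) was followed by Onecut2 (10.62), Isl1 (10.33), Onecut1 (10.25), Lhx4 (10.04), Isl2 (9.42), Lhx3 (8.64), Mnx1 (8.48) and Lhx1 (8.02). The ranges over arrays overlapped for Isl1 with Onecut1, for Onecut1 with Lhx4 and for Lhx3 with Mnx1. The other neighbours did not overlap. Read array by array, Onecut1 was above Lhx4 on all 6. Lhx3 was above Mnx1 except on replicate 8, and Isl1 was above Onecut1 except on replicates 4 and 5. Because probes differ, the order ranks intensities and not amounts of RNA.

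The highest values of the factors fell on replicates 5 and 8. Replicate 8 held the highest value of 5 factors (Mnx1, Isl1, Onecut1, Onecut2 and Lhx4) and replicate 5 that of the other 4 (Isl2, Lhx3, Lhx1 and Pou3f1). Replicate 7 held the lowest value of 5. In replicate 4 only Lhx1 was over its own mean, whereas in each of replicates 5 and 8, 7 of the 9 factors were. Over all rows above background, 47.3% to 53.1% of rows lay over their own mean on an array, so by this measure no array was high for genes at large. How often each array held the highest or lowest value over all rows is not given here. The counts of extremes therefore do not set the factors apart from other genes. Replicate 8 had the lowest mean r with the other arrays, 0.992 against 0.994 to 0.995. Replicate 8 had the lowest Olfr rows, with a median of 5.44 against 5.49 to 5.61 on the others. The part of that difference in the values of replicate 8 was not tested. Any 2 arrays correlated at 0.991 to 0.997 over all rows.

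**Figure D2:**
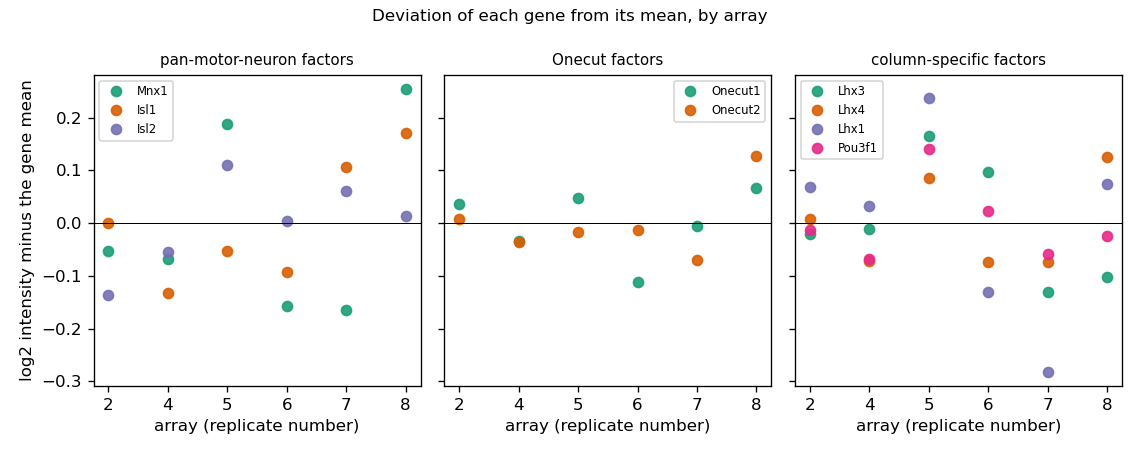
Log2 intensity minus the mean of the gene over the 6 arrays (vertical axis), by array (horizontal axis), for the pan-motor-neuron, Onecut and column-specific factors in separate panels. Replicate 5 is above the mean for all 4 column-specific factors and replicate 7 below it for all 4. The pan-motor-neuron factors spread to both sides on replicate 7.

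Averaged by group, the 3 pan-motor-neuron factors ran from 9.33 in replicate 4 to 9.56 in replicate 8, and the 4 column-specific factors from 9.27 in replicate 7 to 9.56 in replicate 5. The SDs of these averages were 0.096 and 0.095 (n = 6). The groups thus varied by similar amounts, with different arrays at their ends.

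Covariation was measured for each pair of factors as Pearson's r and Spearman's rho over the 6 arrays, each with a two-sided exact test that ran through the 720 possible orders of the arrays. To place the 36 pairs, each factor was also correlated with every other row above background, and p-values were adjusted by Benjamini-Hochberg over all 115128 tests. Of the 36 pairs, 29 had a positive r, and the median r was 0.45. Over all pairs of rows above background the median was -0.00055, with quartiles of -0.41 and 0.41. In 4 of the 36 pairs (11.1%) the exact p was under 0.05, compared with 6.67% of all tests. No pair passed adjustment, with adjusted exact p-values between 0.721 and 0.995. By Spearman's rho 3 pairs had an exact p under 0.05. The smallest exact p that 6 arrays allow is 0.00139 for Pearson's r, too large to survive adjustment over this many tests unless very many rows reach it.

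**Figure D3:**
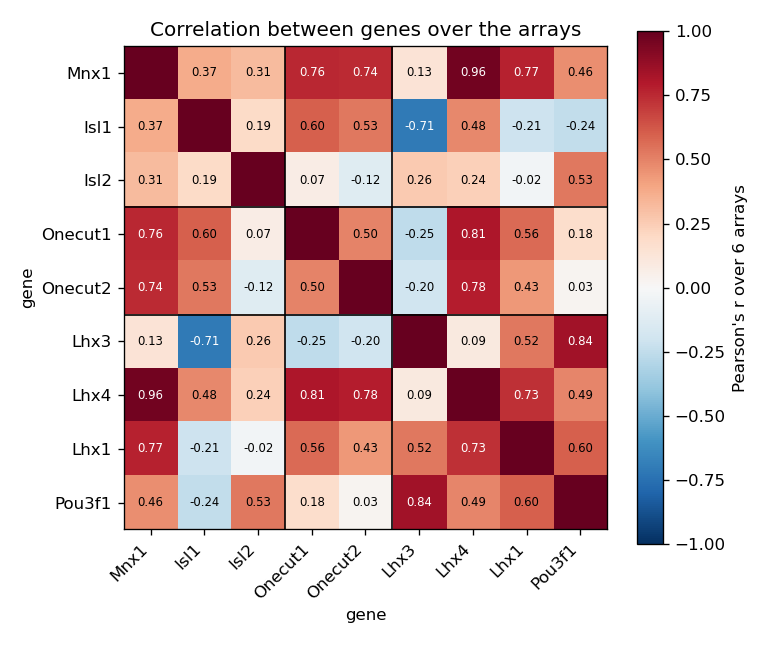
Pearson's r over the 6 arrays for each pair of factors, in colour and as a number, with genes on both axes and black lines between the pan-motor-neuron, Onecut and column-specific factors. The column-specific block is positive throughout, from 0.094 to 0.843. The lowest value, -0.710, is that of Isl1 and Lhx3.

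Mnx1 and Lhx4 were the most alike, although one marks motor neurons at large and the other is kept in 1 column. Their r was 0.965 (exact p = 0.00139, adjusted p = 0.721, across 6 arrays), and their ranks were the same on every array, with a rho of 1 (exact p = 0.00278). Part of this order rested on near ties, with Lhx4 at 9.962, 9.964 and 9.965 on replicates 7, 6 and 4. Replicates 5 and 8, high for both genes, carried much of the relation, and without them r was 0.675. With any single array left out, r was 0.931 to 0.988. The log2 ratio of Mnx1 to Lhx4 ran from -1.65 to -1.43 with an SD of 0.096, against 0.20 had the pair been unrelated. This ratio, and that of Isl1 to Lhx3 below, were chosen after the correlations had been seen. A ratio SD under or over that of an unrelated pair follows from the sign of r, so it adds no support to the correlation.

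Lhx4 also took part in both pairs of an Onecut factor with an exact p under 0.05. With Onecut1 its r was 0.810 (exact p = 0.0472, adjusted p = 0.721) and its rho 0.829 (exact p = 0.0583). Without replicates 6 and 8, the farthest for Onecut1, r was 0.899. With Onecut2 the r was 0.782 (exact p = 0.0361, adjusted p = 0.721) and the rho 0.714 (exact p = 0.136). That pair depended on the highest array, since r was 0.505 without replicate 8 and 0.359 without replicates 7 and 8.

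Lhx3 and Pou3f1 made up the fourth pair, with an r of 0.843 (exact p = 0.0222, adjusted p = 0.721) and a rho of 0.657 (exact p = 0.175). Replicate 5 was the highest for both. Without it r was 0.658, and without replicates 5 and 7 it was 0.542. By rank, Lhx1 followed Mnx1 and Lhx4 instead. Its rho was 0.943 with each (exact p = 0.0167, adjusted p = 0.827), while its Pearson's r was 0.771 with Mnx1 (exact p = 0.0681) and 0.727 with Lhx4 (exact p = 0.0986). Without the 2 arrays farthest for the first gene, replicates 5 and 8, the r with Mnx1 was 0.946 and that with Lhx4 was 0.629.

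Isl1 and Lhx3, partners in 1 protein complex, had the lowest r of the 36, at -0.710 (exact p = 0.121, adjusted p = 0.738), and a rho of -0.714 (exact p = 0.136). The sign was negative with any single array left out, from -0.882 to -0.622, but r was -0.026 without replicates 7 and 8, the high arrays of Isl1. The log2 ratio of Isl1 to Lhx3 ranged from 1.48 in replicate 5 to 1.97 in replicate 8, a 1.41-fold span. Its SD of 0.21 was larger than the 0.16 of an unrelated pair. Arrays high in Isl1 RNA were therefore not the arrays high in Lhx3 RNA, and the test did not separate this from no relation.

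**Figure D4:**
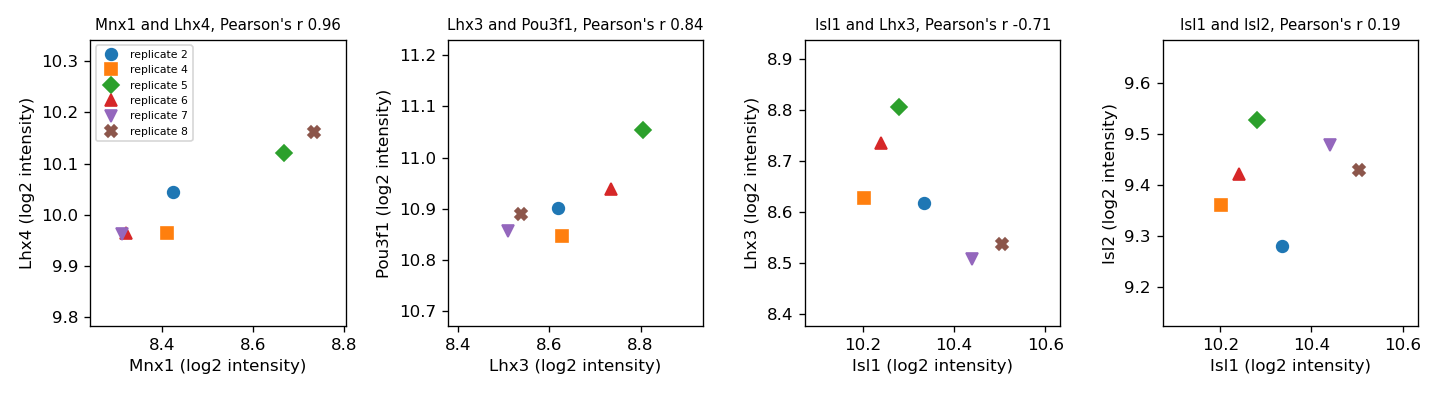
Log2 intensities of 4 pairs of factors, 1 gene on each axis and 1 symbol per array, with axes of equal span. Mnx1 and Lhx4 share the order of the arrays, with replicates 5 and 8 at the top. Lhx3 and Pou3f1 are led by replicate 5, Isl1 and Lhx3 slope downwards (r = -0.710), and Isl1 and Isl2 show little relation (r = 0.188).

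Closely related genes gave no pair with an exact p under 0.05. The r of Isl1 with Isl2 was 0.188 (exact p = 0.725) and the rho 0.314 (exact p = 0.564). The r of Lhx3 with Lhx4 was 0.0939 (exact p = 0.871) and the rho 0.200 (exact p = 0.714). For Onecut1 with Onecut2 the r was 0.495 (exact p = 0.297) and the rho 0.486 (exact p = 0.356). Without the 2 arrays farthest for the first gene these r were -0.254, -0.842 and 0.647. The per-array log2 ratios had SDs of 0.13 for Isl1 to Isl2 and 0.14 for Lhx3 to Lhx4, close to the 0.15 and 0.14 of unrelated pairs, whereas Onecut1 to Onecut2 had 0.067 against 0.094.

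The groups were then set side by side. Within the pan-motor-neuron factors the median r was 0.31 over 3 pairs, from 0.188 to 0.373. Within the column-specific factors it was 0.56 over 6 pairs, all positive. Between the groups it was 0.25 over 12 pairs, 8 of them positive, which span both the highest and the lowest r. Replicate 5 carried the column-specific value, since without it the medians were 0.14 within the column-specific factors and -0.094 between the groups. These medians were not tested against each other. Pairs that share a gene are not independent.

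The 3 factors by which the study corrected other genes did not rank the arrays alike. Mnx1 and Isl1 had an r of 0.373 (exact p = 0.464) and a rho of 0.314 (exact p = 0.564), and r was -0.384 without replicates 5 and 8. Mnx1 and Lhx3 had an r of 0.135 (exact p = 0.790) and a rho of 0.200 (exact p = 0.714), with 0.060 without replicates 5 and 8. The log2 ratio of Mnx1 to Isl1 ran from -2.13 in replicate 7 to -1.61 in replicate 5. Olig2, the progenitor factor that completes the set, went with Lhx3, at an r of 0.859 (exact p = 0.0403, adjusted p = 0.721), a rho of 0.829 (exact p = 0.0583) and an r of 0.767 without replicates 5 and 7. With any single array left out the r of Olig2 and Lhx3 was 0.792 to 0.972.

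The sequences just upstream of the genes at both ends of this range are shown, those of Mnx1 and Lhx4 because they shared the order of the arrays, and those of Isl1 and Lhx3 because they ran most nearly opposite. They are RefSeq promoters on build GRCm38.p6, 300 bases each, from 250 before the transcription start to 50 after it. Capitals mark TAAT on either strand, the core recognised by homeodomain factors such as these. Mnx1 lies at chr5:29478421-29478720, Lhx4 at chr1:155741978-155742277, Isl1 at chr13:116309639-116309938 and the listed starts of Lhx3 at chr2:26208200-26208499 and chr2:26206526-26206825, all on the minus strand.
Mnx1: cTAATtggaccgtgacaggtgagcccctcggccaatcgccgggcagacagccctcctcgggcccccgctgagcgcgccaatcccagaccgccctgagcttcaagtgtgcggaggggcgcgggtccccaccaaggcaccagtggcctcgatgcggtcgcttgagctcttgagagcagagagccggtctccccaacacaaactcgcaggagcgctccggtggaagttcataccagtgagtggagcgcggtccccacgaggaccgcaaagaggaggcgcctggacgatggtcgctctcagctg
Lhx4: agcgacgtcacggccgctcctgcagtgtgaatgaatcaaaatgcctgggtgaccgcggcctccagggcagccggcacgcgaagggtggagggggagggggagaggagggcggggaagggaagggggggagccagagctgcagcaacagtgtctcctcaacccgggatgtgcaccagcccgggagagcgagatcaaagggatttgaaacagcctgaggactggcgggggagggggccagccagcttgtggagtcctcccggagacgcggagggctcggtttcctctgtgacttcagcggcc
Isl1: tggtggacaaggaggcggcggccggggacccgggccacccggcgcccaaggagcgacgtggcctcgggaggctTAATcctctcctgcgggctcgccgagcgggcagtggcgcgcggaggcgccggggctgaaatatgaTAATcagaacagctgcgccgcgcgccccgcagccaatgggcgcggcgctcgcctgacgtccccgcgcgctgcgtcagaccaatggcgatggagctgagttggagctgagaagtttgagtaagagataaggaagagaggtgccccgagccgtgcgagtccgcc
Lhx3 first start: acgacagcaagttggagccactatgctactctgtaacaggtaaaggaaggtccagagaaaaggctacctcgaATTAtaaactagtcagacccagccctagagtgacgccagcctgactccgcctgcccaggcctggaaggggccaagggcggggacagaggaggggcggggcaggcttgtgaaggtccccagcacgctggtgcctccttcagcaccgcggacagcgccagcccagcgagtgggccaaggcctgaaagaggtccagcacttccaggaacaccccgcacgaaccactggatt
Lhx3 second start: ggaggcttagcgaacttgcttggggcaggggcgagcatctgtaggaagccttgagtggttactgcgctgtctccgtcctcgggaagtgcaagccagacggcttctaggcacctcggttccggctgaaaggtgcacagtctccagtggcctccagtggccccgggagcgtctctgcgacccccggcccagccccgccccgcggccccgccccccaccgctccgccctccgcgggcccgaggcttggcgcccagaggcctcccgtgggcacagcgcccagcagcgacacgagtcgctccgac

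The windows of Mnx1 and Lhx4 differed in TAAT and CANNTG. Each held 1 GGGCGG, the GC box, which is in 35.7% of all promoters. Mnx1 held 1 TAAT, at the far end of the window, and 3 matches of CANNTG, the E-box of basic helix-loop-helix factors such as Neurog2. Lhx4 held none of either. TAAT is present in 58.0% and CANNTG in 72.3% of the 32851 RefSeq promoters of the same length, so both are common. Isl1 held 2 TAAT, the first start of Lhx3 held 1 and the second start none. CpG dinucleotides numbered 26 in Mnx1, 19 in Lhx4, 37 in Isl1, and 13 and 28 at the starts of Lhx3, against a median of 7 over all promoters. The Onecut site ATCGAT, which is in 0.925% of all promoters, was in none of the 11 windows listed for 8 of the 10 factors, and neither was AGGTCA of the retinoic acid receptors (16.3%) nor TGGGTGGTC of the Gli factors of the Hedgehog pathway (0.253%). Both strands were searched. A match is a description and not a binding site, and the absence of these letters says nothing of the factors elsewhere.

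Each factor's most similar rows by Pearson's r among 12732, with Olfr rows and the other factors left out, reached 0.968 to 0.998. For Mnx1 they were Sgta (0.992) and Hyou1 (0.990), for Isl1 Hecw1 (0.998) and Mtmr9 (0.994), and for Isl2 Rhpn1 (0.994) and Mrps11 (0.968). Those of Onecut1 were Rtcd1 (0.997) and Gpkow (0.996), and those of Onecut2 were Gdap2 (0.996) and Esd (0.992). Lhx3 was closest to Dap (0.987) and Prr5l (0.983), Lhx4 to Abce1 (0.998), Lhx1 to Rpl8 (0.992) and Ankrd52 (0.989), and Pou3f1 to B3gnt1 (0.991) and Pars2 (0.982). All had an adjusted permutation p of 0.721. No row was shared between factors. The share of rows with an exact p under 0.05 was 9.38% for Mnx1, 9.06% for Onecut2 and 8.36% for Lhx4, and 3.90% for Isl2 and 4.45% for Pou3f1.

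Other genes of the motor neuron programme and of cell types that use the same factors were read from gene lists. The count of each list stands beside the 65.2% of all rows above background. Among partners of LIM-homeodomain factors, 8 of 8 measured genes were above background, with Ldb1, the adaptor of the complex, at 11.78 ± 0.056 (SD, n = 6) and Lmo4, which competes for Ldb1, at 10.75 ± 0.062. Progenitor and neurogenesis genes were above it in 6 of 7 cases, among them Nkx6-1 (10.55 ± 0.081) and Neurod4 (11.29 ± 0.13), while Pax6, a factor of ventral and dorsal progenitors, was below background at 6.89. All 7 measured genes of differentiated motor neurons were above, including Chat, the enzyme that makes acetylcholine, at 9.42 ± 0.097 and the guidance ligand Slit2 at 12.70 ± 0.034.

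Markers of columns and pools were above background in 7 of 8 cases, with Etv4, a limb motor pool factor, below at 7.34. Aldh1a2, the retinoic acid enzyme of lateral motor column cells, stood at 8.28 ± 0.16 and Mecom, a medial motor column factor, on the background at 7.48 ± 0.12. Cranial and visceral motor neuron genes were above it in 3 of 3, with Tbx20 at 9.89 ± 0.20, highest in replicate 2. Relatives of the 10 factors were above in 12 of 14, among them Foxp2 (9.75 ± 0.034), Foxp4 (10.09 ± 0.034), Pou3f4 (12.11 ± 0.076) and Onecut3 (8.51 ± 0.070). At the 99th percentile, 8 LIM partners, 5 progenitor and neurogenesis genes and 7 genes of differentiated motor neurons stayed above. So did 4 column and pool markers, 2 cranial and visceral genes, 9 relatives and 8 of the 12 interneuron genes given below. These counts stand beside a share of all rows below that percentile that lies between 45.5% and 54.3%.

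Genes of other cell types that use these factors were read beside the 65.2% of all rows above background, and the counts were not tested. Spinal interneuron genes were above background in 10 of 12 cases, with En1 of V1 cells at 8.88 ± 0.13, Sim1 of V3 cells at 9.41 ± 0.086 and Pax2 at 8.94 ± 0.11, and with Lbx1 (6.62) and Lhx5 (6.92) below. Sensory neuron genes were above in 5 of 5, but 1 of them, Pou4f1 at 8.96 ± 0.098, passed the 99th percentile. Cardiac genes were above in 4 of 5, of which Nkx2-5 (9.51 ± 0.067) alone passed the 99th percentile, and kidney and intermediate mesoderm genes in 1 of 3. Endoderm and liver genes were above in 2 of 6, namely Hnf4a (8.18 ± 0.15) and Foxa1 (10.996 ± 0.055), the latter also a floor plate gene, while Afp (6.07), Alb (7.21) and Sox17 (6.74) were below. Interneuron genes averaged 8.46 in replicate 8 to 8.71 in replicate 5, sensory genes 7.89 to 8.15, cardiac genes 7.92 to 8.15, kidney genes 7.38 to 7.74 and endoderm genes 7.50 to 7.87, each list lowest in replicate 8. The LIM partners, the column and pool markers and the relatives of the factors were lowest on that array too. Its 95th percentile of Olfr rows was 7.26, against 7.42 to 7.60 on the others, and its lower quartile of intensity over all rows was 109, against 121 to 129. Genes of differentiated motor neurons averaged lowest in replicate 4 (9.75) and highest in replicate 8 (10.04). The part of this array difference in the list averages, and that of these cell types in the values of Isl1, Lhx1 and the Onecut factors, was not tested.

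**Figure D5:**
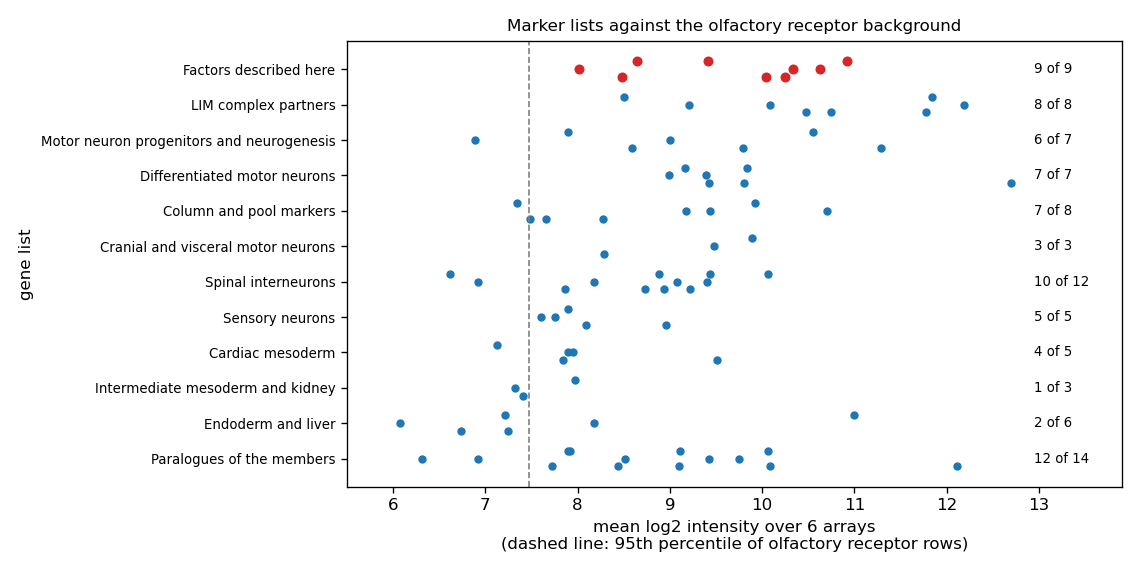
Mean log2 intensity over the 6 arrays (horizontal axis) of the genes of each list (vertical axis), with the 9 factors in red on top. The dashed line is the 95th percentile of the Olfr rows, and the numbers at the right count the genes above it. Motor neuron lists lie mostly to the right of the line, as do interneuron, sensory and cardiac genes. Endoderm and kidney genes lie to its left except 3.

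Set against the factors over the arrays, the 65 listed genes above background gave 585 pairs, of which 36 had an exact p under 0.05. At 6.15% this share was no higher than the 6.67% over all tests, and none passed adjustment (lowest adjusted permutation p = 0.721). These pairs were added after the levels had been seen, and those named were chosen for their values. The share was 7.94% for genes of differentiated motor neurons, 8.89% for sensory genes and 11.1% for cardiac genes, the last 2 with negative r only. For Isl1, 3 of the 7 genes of differentiated motor neurons were among the 36. So were the interneuron gene Gata3 (r = 0.911, exact p = 0.00972), Zeb2 (0.891, exact p = 0.0181) and Mecom (0.830, exact p = 0.0153). Olig1 was too, at -0.884 (exact p = 0.0208). With Ret, the receptor for the survival factor GDNF, Isl1 had an r of 0.952 (exact p = 0.00278), a rho of 0.943 (exact p = 0.0167) and an r of 0.960 without replicates 7 and 8. With Slc5a7, the choline transporter of cholinergic terminals, the r was 0.936 (exact p = 0.00972), the rho 0.829 (exact p = 0.0583) and the r without those arrays 0.559. With Ache, acetylcholinesterase, the r was 0.832 (exact p = 0.0375), the rho 0.943 (exact p = 0.0167) and the r without them 0.988. Onecut2 gave the other 2 such pairs with genes of differentiated motor neurons. Its r was 0.784 with Chat (rho 0.771, exact p = 0.0167 and 0.103). With Gfra1, the co-receptor of Ret, it was 0.856 (rho 0.771, exact p = 0.0333 and 0.103). Without replicates 7 and 8 these r were 0.762 and 0.879, but without replicate 8 alone the r of Onecut2 and Gfra1 was 0.453.

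Ldb1, the adaptor, followed Lhx1 most closely, with an r of 0.954 (exact p = 0.0125), a rho of 0.943 (exact p = 0.0167) and an r of 0.842 without replicates 5 and 7. It also followed Mnx1, at 0.819 (rho 0.886, exact p = 0.0264 and 0.0333), or 0.855 without replicates 5 and 8. Rlim, a ubiquitin ligase that removes LIM cofactors, ran opposite to Isl2, with an r of -0.986 (exact p = 0.00417), a rho of -1 (exact p = 0.00278) and an r of -0.993 without replicates 2 and 5. Ssbp2, which stabilises Ldb1, ran opposite to Mnx1 (r = -0.916, rho = -0.943, exact p = 0.00417 and 0.0167), or -0.864 without replicates 5 and 8. In all of these pairs the adjusted permutation p of r was 0.721.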

How the data were processed

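RNA of 6 EB cultures was hybridised to Affymetrix mouse exon arrays. The deposited intensity values, 1 per gene and array on a linear scale, were made by the authors with Robust Multi-array Averaging (RMA), and a gene is the mean of its exons under annotation release 33. The submitters' processing notes also name Affymetrix Expression Console. The normalization set and the genome build are not given in the sources used here. Normalization across arrays can hide a shift shared by most genes, although the lower quartiles still ran from 109 to 129, and a mean over exons hides isoforms. Arrays give no read depth, and their number limits the precision.

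Values were put on the log2 scale without a pseudocount. Gene names were matched by symbol, then by RefSeq synonym. Dose, age and times come from the methods of the study. SDs, exact permutation tests and adjustment were computed in Python 3.11.15 with numpy 2.4.6 and pandas 2.3.3, and the test was checked on simulated data. Alternatives were median centring, quantile normalization, a pseudocount of 16, linear values, ranks, other groupings, the 99th percentile, no filter and leaving out each array. Named genes were the 10 factors, listed genes above background and the 2 rows most alike per factor, some of which are not reported here. A few genes below background (Pax6, Etv4, Lbx1, Lhx5, Afp, Alb and Sox17) were named after their values were seen. The factors and lists were chosen with earlier results of these data known. The table held 0 columns of other samples.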

Additional observations from a re-analysis of the deposited data

Results flagged for a closer look

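No factor and none of the ratios between factors had an array standing apart from the other 5 by Dixon's gap ratio. The 80 sets of values screened share the same arrays and are not independent, so their count cannot decide whether such gaps arose by chance. Among them 4 listed genes had such an array, where chance at about 1 in 20 would give 4 for independent sets. Each was set apart by replicate 8, which was the lowest for Nos1 (7.32), Hand2 (7.65) and Hnf4a (7.90) and the highest for Foxp4 (10.15), with gap ratios of 0.678, 0.673, 0.626 and 0.646, each past Dixon's 95% critical value for 6 arrays.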

How the results depend on the processing

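The number of factors above background was 9 under median centring, quantile normalization, each array's own Olfr percentile and each array left out, and 8 at the 99th percentile. All 72 recomputed levels and all 32 recomputed ratios moved by less than 1 SD. Of 81 recomputed SDs, 78 stayed within 1.5 times, the others being Pou3f1 without replicate 5 (0.037), Onecut1 without replicate 6 (0.041) and Onecut2 without replicate 8 (0.029). Correlations were less stable. The count of factor pairs with an exact p under 0.05 was 4, but 2 after quantile normalization, 3 by Spearman's rho and 1 to 3 with 1 array left out. The exact p of Mnx1 and Lhx4 stayed under 0.05 in every alternative run, whereas each of the other 3 pairs lost it by Spearman's rho and with some arrays left out. The median r within pan-motor-neuron factors was 0.45 after median centring and 0.19 to 0.56 with 1 array left out. That within column-specific factors was 0.14 to 0.76 with 1 array left out. Between the groups it was 0.50 with Lhx3 and Lhx4 counted as pan-motor-neuron and -0.094 to 0.42 with 1 array left out, so its sign turned without replicate 5. Over all pairs it was 0.31 by Spearman's rho and 0.14 to 0.49 with 1 array left out. The count of pairs with listed genes was 36, but 21 without replicate 6, 18 without replicate 8 and 21 by Spearman's rho. None of the 4 factor pairs changed sign under these alternatives. Of the 36 pairs with listed genes, 7 changed sign without the 2 arrays farthest for the factor and 0 with a single array left out. The count passing adjustment was 0 with or without the filter on low values. The planned ratios of Foxp1 were not run. No paired analysis was possible because there is a single group. Causes of these changes were not tested.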
